A study of Mus musculus with 24 samples.

Results

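The 14 leukemias of this series, of 24 arrays in all, differed widely in how much Pax5 RNA they held, and here they are compared by that amount. The 2 groups were chosen by the Pax5 signal itself: the 14 arrays were split at the median of the single Pax5 probe set, which put 7 leukemias in a Pax5-low group and 7 in a Pax5-high group. Every other named gene was then compared between them. The groups are defined by a measured value and not by a label of the study, so the Pax5 values below describe the groups and carry no test.

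Pax5 is the paired-domain transcription factor through which lymphoid progenitors become committed B cells. It switches on genes of B-cell receptor signalling, among them the receptor chain Cd79a and the adaptor Blnk, and holds down genes that belong to myeloid, T and NK cells. Loss or mutation of one PAX5 copy is frequent in human B-cell acute lymphoblastic leukemia.

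Messenger RNA was hybridized to single-colour Affymetrix arrays, and each array came from a different mouse. Every mouse, of either genotype and stage, had received 2 Gy of ionizing radiation. The Pax5-low group held 6 Pax5+/- leukemias and 1 wild-type leukemia, and the Pax5-high group held 4 Pax5+/- and 3 wild-type leukemias. The remaining arrays, used for reference, came from preleukemic pro-B and pre-B marrow cells in 7 Pax5+/- mice and 3 wild-type mice, collected 3 weeks later. The labels carry the same 3 weeks on the leukemic samples, which leaves their time of collection unclear. The leukemic samples are labelled as B cells of the bone marrow. Age, strain and sex were not given, nor was the position of the Pax5 probe set relative to the disrupted part of the gene, nor the way in which leukemic cells were separated from the rest of a tumor-bearing marrow. Per-array values are named below by genotype and by the replicate number of the labels.

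All values are log2 signals as deposited, in which 1 unit is a 2-fold difference. The 14 leukemic arrays correlated with each other at 0.967 to 0.99 over all probe sets, and no pair held the same values. Arrays high in Y-linked genes numbered 3 of 7 in the Pax5-low group and 2 of 7 in the Pax5-high group. Every leukemic array held B-lineage RNA, though not of every B-lineage gene. Cd79b, the second chain of the receptor complex, ran from 11.70 to 12.42 in Pax5-low and from 12.18 to 12.66 in Pax5-high leukemias. Rag2 and Ms4a1 were weak on most arrays, with medians of 5.64 and 5.99 in Pax5-low and 6.06 and 5.86 in Pax5-high leukemias. Cd72, Vpreb1 and Blnk were weak on some arrays. The lowest values of these 5 genes, in the order named, were 4.91, 5.17, 5.96, 6.55 and 6.45 over the 14 leukemias. Wild-type leukemia 2 stood apart through NK-cell and erythroid genes, as given below.

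Pax5 itself formed a gradient without a gap. In the Pax5-low group it was 6.34 in wild-type leukemia 2 and 6.87, 7.67, 7.92, 8.00, 8.32 and 8.36 in Pax5+/- leukemias 1, 4, 8, 10, 3 and 6. In the Pax5-high group it was 8.36, 9.03 and 9.38 in Pax5+/- leukemias 9, 5 and 7, then 10.03, 10.67 and 10.74 in wild-type leukemias 4, 3 and 1, and 11.37 in Pax5+/- leukemia 2. The members just inside and just outside the limit, Pax5+/- leukemias 6 and 9, differed by 0.0006. The Pax5-low group averaged 7.64 ± 0.76 and the Pax5-high group 9.94 ± 1.07 (SD, n = 7 each). All preleukemic arrays lay between 11.34 and 12.16, so 1 leukemia of 14, Pax5+/- leukemia 2, lay within the preleukemic range.

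**Figure D1:**
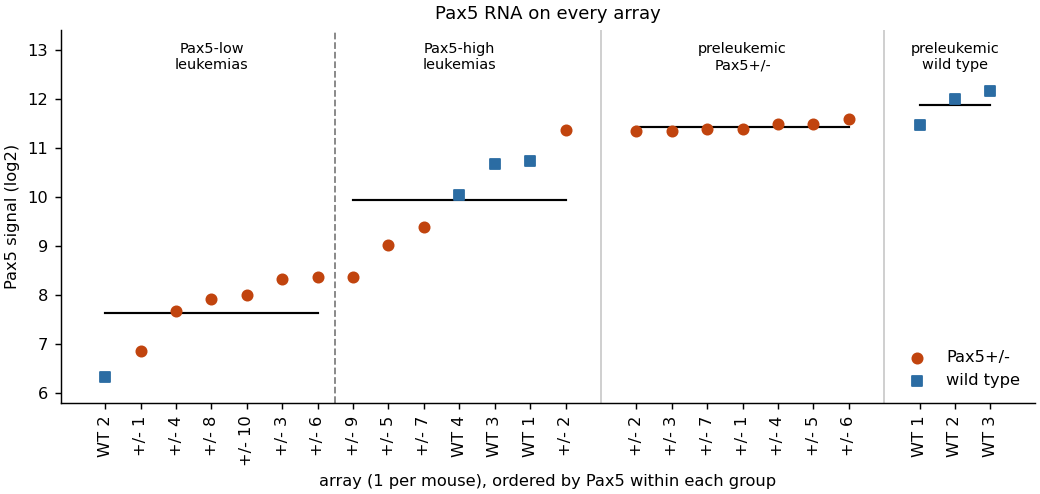
Pax5 signal (log2, vertical axis) on each of the 24 arrays, with the 7 Pax5-low leukemias at left, then the 7 Pax5-high leukemias, 7 preleukemic Pax5+/- and 3 preleukemic wild-type samples. Circles are Pax5+/- mice, squares wild-type mice and bars group means; the dashed line is the split, which runs between Pax5+/- leukemias 6 and 9, both at 8.36.

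Promoter sequences are shown for 3 genes to which the results below return: St3gal5, which had the smallest p of any gene between the groups; Cd79a, the B-cell gene that followed Pax5 most closely among its known targets in these leukemias; and Trim30a, a member of the interferon group. Each is 300 bases around the gene's start from the RefSeq promoter table of build GRCm38.p6, at chr6:72097358-72097657 on the plus strand, chr7:24897247-24897546 on the plus strand and chr7:104465144-104465443 on the minus strand. Capitals mark the motif GAAANNGAA, the core of the element that interferon-activated factors bind, searched on both strands. RefSeq lists a second Trim30a start, which also held the motif.
St3gal5: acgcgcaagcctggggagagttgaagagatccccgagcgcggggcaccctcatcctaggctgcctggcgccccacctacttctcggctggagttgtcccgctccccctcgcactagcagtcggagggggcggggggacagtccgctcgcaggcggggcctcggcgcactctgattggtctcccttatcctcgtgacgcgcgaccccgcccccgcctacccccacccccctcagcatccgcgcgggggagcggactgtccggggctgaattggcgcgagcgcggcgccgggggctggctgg
Cd79a: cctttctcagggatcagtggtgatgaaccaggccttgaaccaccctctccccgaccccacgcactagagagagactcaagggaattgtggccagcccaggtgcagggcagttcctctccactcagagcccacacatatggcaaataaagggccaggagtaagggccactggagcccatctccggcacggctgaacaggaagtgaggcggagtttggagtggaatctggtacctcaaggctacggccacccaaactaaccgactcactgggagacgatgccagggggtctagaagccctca
Trim30a: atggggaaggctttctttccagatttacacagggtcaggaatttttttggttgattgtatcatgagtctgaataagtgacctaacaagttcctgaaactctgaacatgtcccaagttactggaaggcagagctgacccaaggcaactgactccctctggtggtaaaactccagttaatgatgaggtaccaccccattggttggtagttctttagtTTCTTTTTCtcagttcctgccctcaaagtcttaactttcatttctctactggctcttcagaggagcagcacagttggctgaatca
The motif stood once in the Trim30a promoter, on the strand opposite to the gene. These letters do not occur in the other 2 windows.

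The comparison of Pax5-low with Pax5-high leukemias asks which other transcripts differ between leukemias that hold little and much Pax5 RNA. No gene passed. With limma across 15383 genes, none passed an adjusted p of 0.05 (0 genes, 0%), and 549 had an unadjusted p under 0.05. Of these, 243 were higher (1.58% of genes tested) and 306 lower (1.99%) in Pax5-low leukemias. The precision allows a bound for most genes: for 14601 genes (94.9%) the 95% interval of the difference lay within 2-fold either way. Point estimates of 2-fold or more numbered 57 on the higher side and 8 on the lower side, and 20 and 3 of them had an unadjusted p under 0.05. With the Pax5 value itself as the predictor over all 14 leukemias, 0 genes were called as well (0%), while 1015 had an unadjusted p under 0.05, 433 of them higher (2.81%) and 582 lower (3.78%) with less Pax5. In what follows "slope" is the difference in a gene's log2 signal for 1 log2 unit less of Pax5 in that fit, and none of the named differences passed adjustment unless stated.

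St3gal5, the synthase that makes the ganglioside GM3, separated the groups most clearly. It was 8.82 in wild-type leukemia 2 and 8.76 to 9.52 in the 6 Pax5+/- leukemias of the Pax5-low group. In the Pax5-high group it was 6.55, 7.32, 6.39 and 7.77 in Pax5+/- leukemias 9, 5, 7 and 2, and 6.40, 6.89 and 8.75 in wild-type leukemias 4, 3 and 1. The groups did not overlap, although wild-type leukemia 1 lay only 0.01 below the lowest Pax5-low value. The difference was 1.92 ± 0.32 (SE; 3.78-fold higher in Pax5-low, 95% interval 1.23 to 2.61; limma unadjusted p = 3.46e-05, adjusted p = 0.533). On the amount of Pax5 the slope was 0.41 ± 0.18 (unadjusted p = 0.0388), but St3gal5 did not fall steadily as Pax5 rose. Pax5+/- leukemias 6 and 9 were only 0.0006 apart in Pax5. Yet leukemia 6 lay within the Pax5-low range of St3gal5 and leukemia 9 was at 6.55. Within the Pax5-high group, wild-type leukemia 1 and Pax5+/- leukemia 2 had the most Pax5 and also the highest St3gal5, 8.75 and 7.77. Preleukemic samples, whose mean Pax5 was highest, averaged 7.08 in Pax5+/- (6.39 to 7.61) and 7.12 in wild-type mice (6.04 to 8.65). Without wild-type leukemia 1, the Pax5-high array nearest the Pax5-low values, St3gal5 was called (limma adjusted p = 0.00329). Leaving out any other single leukemia gave limma adjusted p-values of 0.577 to 0.997.

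Only 4 genes had groups that did not overlap (0.026% of genes tested). Beside St3gal5 these were Krcc1, Ccdc138 and Fgf20, all lower in Pax5-low leukemias. Fgf20, a fibroblast growth factor named here after its values were seen, differed by -0.08 at a mean of 5.31 in Pax5-low and 5.39 in Pax5-high leukemias. Those signals lie close to the dim level, the 30th percentile of each array, which ran from 5.18 to 5.35.

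The 12 genes with the smallest p on the higher side had differences of 0.14 to 1.92 and limma adjusted p-values of 0.533 to 0.991. Parp12, an ADP-ribosyltransferase induced by interferon, was 9.72, 9.12, 8.67, 7.73, 7.50, 7.36 and 8.38 in the Pax5-low group in order of rising Pax5, against 6.92, 7.62, 7.18, 6.76, 7.47, 7.32 and 6.01 in the Pax5-high group. The highest values belonged to the 3 leukemias with the least Pax5 and the lowest to the leukemia with the most, and the groups overlapped in the middle. Its difference was 1.31 ± 0.37 (SE, unadjusted p = 0.00298), and its slope was 0.53 ± 0.10 (unadjusted p = 0.000139, adjusted p = 0.602). In the fit of slopes 1 gene had a smaller p, Dhx58, the gene of the viral RNA sensor LGP2, named after its values were seen (0.35 ± 0.06, unadjusted p = 5.73e-05, adjusted p = 0.602). Trim12c, a member of the antiviral TRIM5 family, differed by 0.68. Ly75, the endocytic receptor DEC-205, differed by 0.51. Acadl, which opens the oxidation of long-chain fatty acids in mitochondria, was higher by 0.59. Nabp1, a protein that binds single-stranded DNA, was higher by 0.64. The co-chaperone Dnajc3 was higher by 0.27, the glycosylation enzyme Stt3b by 0.28 and the torsin ATPase Tor3a by 0.52. The others were Ankfy1 (0.14) and Tbc1d1 (0.28), which act in membrane traffic, and Lrrc2 (0.33). Lrrc2 lay near the dim level in the Pax5-high group, with means of 5.73 in Pax5-low and 5.40 in Pax5-high leukemias.

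The 12 genes with the smallest p on the lower side had smaller differences, from -0.83 to -0.11, with adjusted p-values of 0.647 to 0.991. Mrpl35, a protein of the mitochondrial ribosome, was 8.05 to 8.95 in Pax5-low and 8.79 to 9.47 in Pax5-high leukemias. Wild-type leukemia 2 at 8.95 was the only Pax5-low value to reach the Pax5-high range. The difference was -0.83 ± 0.15 (SE; 95% interval -1.15 to -0.50; unadjusted p = 8.41e-05). Selenbp1, which oxidizes methanethiol, was 5.88 to 6.35 in Pax5-low and 6.30 to 7.08 in Pax5-high leukemias, a difference of -0.46 ± 0.11. It was highest, at 7.08, in Pax5+/- leukemia 2, and its slope without wild-type leukemia 2 had the smallest unadjusted p of any named gene (-0.22, unadjusted p = 6.75e-06, adjusted p = 0.104). Slc38a9, a lysosomal amino acid sensor of the mTORC1 pathway, differed by -0.46. Krcc1 differed by -0.25, Ccdc138 by -0.28 and Efna4, an ephrin ligand, by -0.29. Natd1, Fbxl8, Arhgap33, Zpbp, Klk1b5 and Stmn4 differed by -0.24 to -0.11, and Klk1b5 and Zpbp lay near the dim level.

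**Figure D2:**
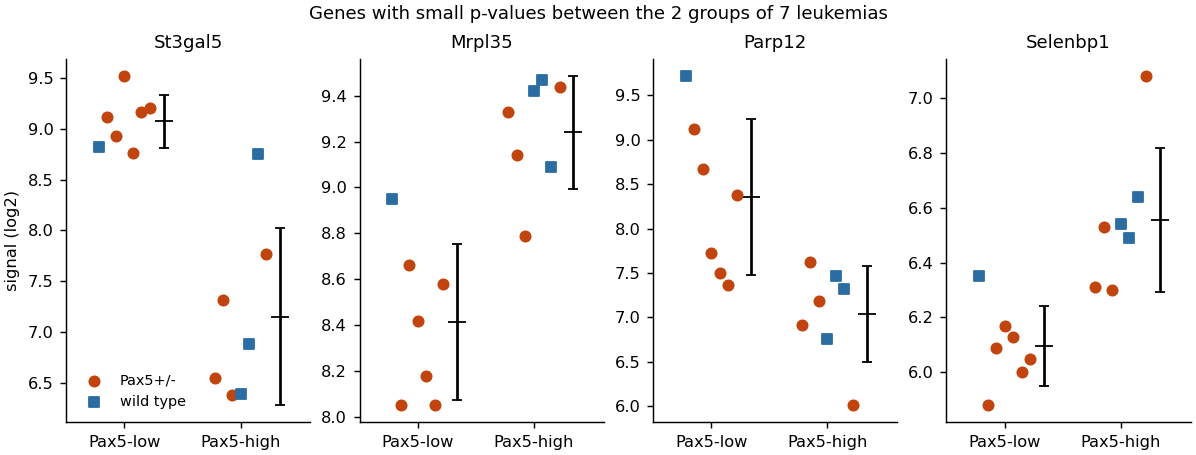
Log2 signal of St3gal5, Mrpl35, Parp12 and Selenbp1 in the 7 Pax5-low (left) and 7 Pax5-high leukemias (right), each group in order of rising Pax5, with circles for Pax5+/- and squares for wild-type mice. The black marks show each group's mean and SD; St3gal5 is the gene of these 4 whose groups do not overlap, with wild-type leukemia 1 at 8.75 just under the Pax5-low values.

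The 3 genes with the smallest p in the split were St3gal5, Mrpl35 and Krcc1. In the RefSeq order of genes they lie in the same stretch of chromosome 6, with other tested genes between them. This was noticed after the values were seen, and the stretch described, the 26 tested genes from Krcc1 to Elmod3, was bounded by genes of small p, so no count of p-values is read from it. St3gal5 was higher in Pax5-low leukemias, while Mrpl35, Krcc1, Elmod3 (-0.29), Polr1a (-0.19), Ggcx (-0.14) and Gm1070 (-0.11) were lower. The other 19 genes differed by -0.12 to 0.29. Immt and Ptcd3, which lie between Mrpl35 and St3gal5, differed by 0.02 and 0.01, so the differences did not run through the whole stretch.

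Genes on either side of Pax5 on its chromosome are described next. The Pax5 group means lay 2.30 apart because Pax5 chose the groups, so that difference is no measure for its neighbours. Of the 10 nearest tested genes, 8 were lower in Pax5-low leukemias, with differences of -0.35 to 0.33. Without wild-type leukemia 2 the lowest of these differences was -0.77, for Grhpr. The smallest unadjusted p among them was 0.0452, for Glipr2, which was higher (0.33 ± 0.15). Zcchc7, which lies beside Pax5 and encodes a zinc knuckle protein, was 8.59 to 10.38 in Pax5-low and 9.03 to 10.75 in Pax5-high leukemias (-0.35 ± 0.32, and -0.19 without wild-type leukemia 2). Grhpr was 11.67 in wild-type leukemia 2 and 7.16 to 10.15 in the other 13 leukemias, a difference of -0.21.

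B-lineage genes known as Pax5 targets had a small median difference between the groups, although single genes were not all bounded closely. Of 30 tested Pax5-activated genes, 12 were higher in Pax5-low leukemias, with differences of -0.41 to 0.94 and a median of -0.11. Over all genes tested the median was -0.01, and 45% were higher. The 95% interval for Blnk ran from -1.24 to 1.89. None of the 30 had an unadjusted p under 0.05. On the gradient, 3 of the 30 were lower with less Pax5 at an unadjusted p under 0.05 (3.78% of all genes) and 2 were higher (2.81%). Of 29 Pax5-repressed genes, 23 were higher in Pax5-low leukemias, with differences of -1.19 to 1.92 and a median of 0.25. Of the higher genes 2, Nkg7 and Lilrb4a, had an unadjusted p under 0.05 (1.58% of all genes). Several genes of the repressed list are also markers of NK or myeloid cells, whose lists are given below.

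Cd79a, the signalling chain of the B-cell receptor, was the target that followed Pax5 most closely. It was 10.46, 10.99, 11.54, 11.36, 11.11, 11.78 and 11.98 in the Pax5-low group in order of rising Pax5, against 11.37, 11.41, 11.61, 11.76, 11.58, 12.06 and 12.28 in the Pax5-high group. The lowest value belonged to the leukemia with the least Pax5 and the highest to the one with the most. The groups overlapped and differed by -0.41 ± 0.22 (SE, unadjusted p = 0.081), or by -0.27 without wild-type leukemia 2, while the slope was -0.25 ± 0.05 (unadjusted p = 0.000241, adjusted p = 0.617). It was -0.17 without both wild-type leukemia 2 and Pax5+/- leukemia 2, the ends of the gradient. In marrow RNA fewer cells of a type and less RNA per cell cannot be told apart.

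No transcription factor of the B lineage passed the test. Of 24 tested, 7 were higher and 17 lower in Pax5-low leukemias, with a median of -0.12 (-0.05 without wild-type leukemia 2) and no unadjusted p under 0.05. On the gradient 6 were lower at an unadjusted p under 0.05 (3.78% of all genes), and 1 was higher, Ikzf3, the gene of Aiolos (slope 0.30). The count of lower factors was 2 without wild-type leukemia 2 (3.68% of all genes were lower by this rule in that fit) and 1 without Pax5+/- leukemia 2 (1.66%), and the median slope was -0.07 with all 14 leukemias and -0.02 without both ends. Ebf1, which acts upstream of Pax5, was 9.81 to 11.25 in Pax5-low and 10.49 to 11.51 in Pax5-high leukemias, and differed by -0.23 (95% interval -0.69 to 0.23), and by -0.08 without wild-type leukemia 2. Tcf3, the gene of the E2A factors, was 9.02 to 9.59 in Pax5-low and 9.43 to 10.51 in Pax5-high leukemias. Its highest value was that of Pax5+/- leukemia 2, and its slope was -0.14 with that array and -0.06 without it. Ets1, a factor that binds beside Pax5 at the Cd79a promoter, was 8.25 to 9.49 in Pax5-low and 9.23 to 10.56 in Pax5-high leukemias (-0.45 ± 0.22). Ikzf1, the gene of Ikaros, was 10.41 to 10.89 in Pax5-low and 10.38 to 10.80 in Pax5-high leukemias (-0.02, 95% interval -0.23 to 0.19, and 0.01 without wild-type leukemia 2).

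Among genes of pro-B and pre-B cells the count of small p-values also depended on the ends of the gradient. Of 27 tested, 9 were higher in Pax5-low leukemias and the median was -0.10. On the gradient 8 were lower at an unadjusted p under 0.05 (3.78% of all genes). This count was 4 without wild-type leukemia 2 (3.68%) and 1 of 27 without Pax5+/- leukemia 2 (1.66%), the last near the share of all genes. Rag2, a subunit of the recombinase that joins antibody gene segments, was 4.91, 5.34, 6.09, 6.07, 5.64, 5.37 and 6.52 in the Pax5-low group, against 5.18, 6.06, 6.84, 6.00, 5.38, 6.87 and 8.88 in the Pax5-high group. The value of 8.88 in Pax5+/- leukemia 2 stood near the preleukemic means of 8.96 and 9.04 in Pax5+/- and wild-type mice, and 1 array of each group lay at or below the dim level. Igll1, a chain of the pre-B-cell receptor, spanned 9.81 to 13.21 in Pax5-low and 10.56 to 13.20 in Pax5-high leukemias, and differed by -0.14, or by 0.22 without wild-type leukemia 2. Blnk was 6.45 in wild-type leukemia 2 and 7.05 in wild-type leukemia 4, one in each group, and 9.74 to 11.44 in the other 12. Its difference was 0.33 ± 0.73, and 0.93 without wild-type leukemia 2.

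**Figure D3:**
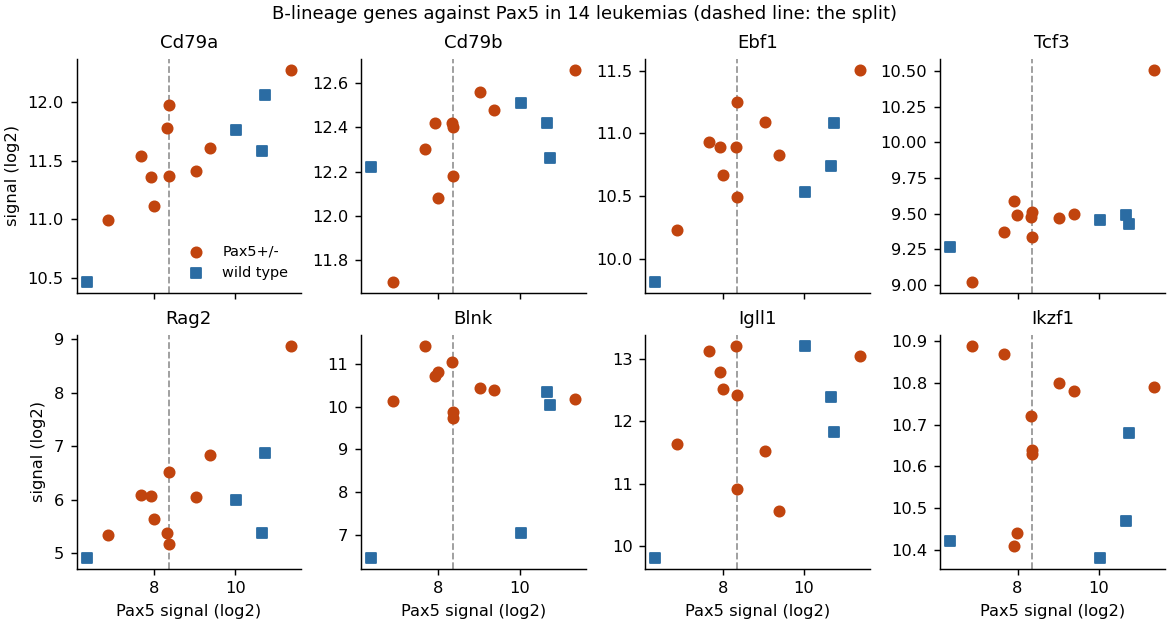
Log2 signal of 8 B-lineage genes (vertical axes, each with its own range) against the Pax5 log2 signal (horizontal axis) in the 14 leukemias, with circles for Pax5+/- and squares for wild-type mice. Cd79a climbs along the gradient to 12.28, while the 2 low Blnk values, 6.45 and 7.05, stand at different Pax5 levels and Ikzf1 stays between 10.38 and 10.89.

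Interferon response genes, the antiviral program that type I interferon switches on, were higher in Pax5-low leukemias. Of 20 tested, 19 were higher, with differences of -0.08 to 1.64 and a median of 0.58, and 6 had an unadjusted p under 0.05, against 1.58% of all genes. On the gradient all 20 slopes were positive (0.11 to 0.67) and 18 had an unadjusted p under 0.05, against 2.81% of all genes. The mean of the list was 9.04 in wild-type leukemia 2 and 8.04, 7.77, 7.04, 7.17, 7.45 and 7.73 in Pax5+/- leukemias 1, 4, 8, 10, 3 and 6. In the Pax5-high group it was 6.90, 7.96 and 7.30 in Pax5+/- leukemias 9, 5 and 7, then 6.86, 6.81 and 7.42 in wild-type leukemias 4, 3 and 1, and 6.52 in Pax5+/- leukemia 2. The group means overlapped, with the highest value in the leukemia with the least Pax5 and the lowest in the one with the most.

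These interferon counts leaned on the ends of the gradient. Without wild-type leukemia 2, 12 of 20 slopes had an unadjusted p under 0.05 (3.17% of all genes were higher by this rule in that fit). Without Pax5+/- leukemia 2, 15 did (1.83% of all genes), and without both, 4 did (2.41%), with 18 of 20 still positive. Within the 10 Pax5+/- leukemias the median difference was 0.32, with 17 of 20 higher and 0 at an unadjusted p under 0.05 in limma (1.46% of all genes). Rtp4, a chaperone of membrane receptors that interferon induces, was 8.94 to 10.41 in Pax5-low and 6.78 to 9.51 in Pax5-high leukemias (1.12 ± 0.35, unadjusted p = 0.00702). Trim30a, an interferon-induced regulator of innate signalling whose promoter is shown above, was 9.67 to 10.77 in Pax5-low and 9.08 to 10.30 in Pax5-high leukemias (0.58 ± 0.20, unadjusted p = 0.011). The motif GAAANNGAA stood in the promoters of 10 of the 14 interferon genes that RefSeq's table holds (71.4%), against 8.53% of all 32544 promoters. It stood in 4 of 27 Pax5-activated (14.8%), 3 of 20 granulocyte (15%) and 0 of 12 T-cell promoters.

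**Figure D4:**
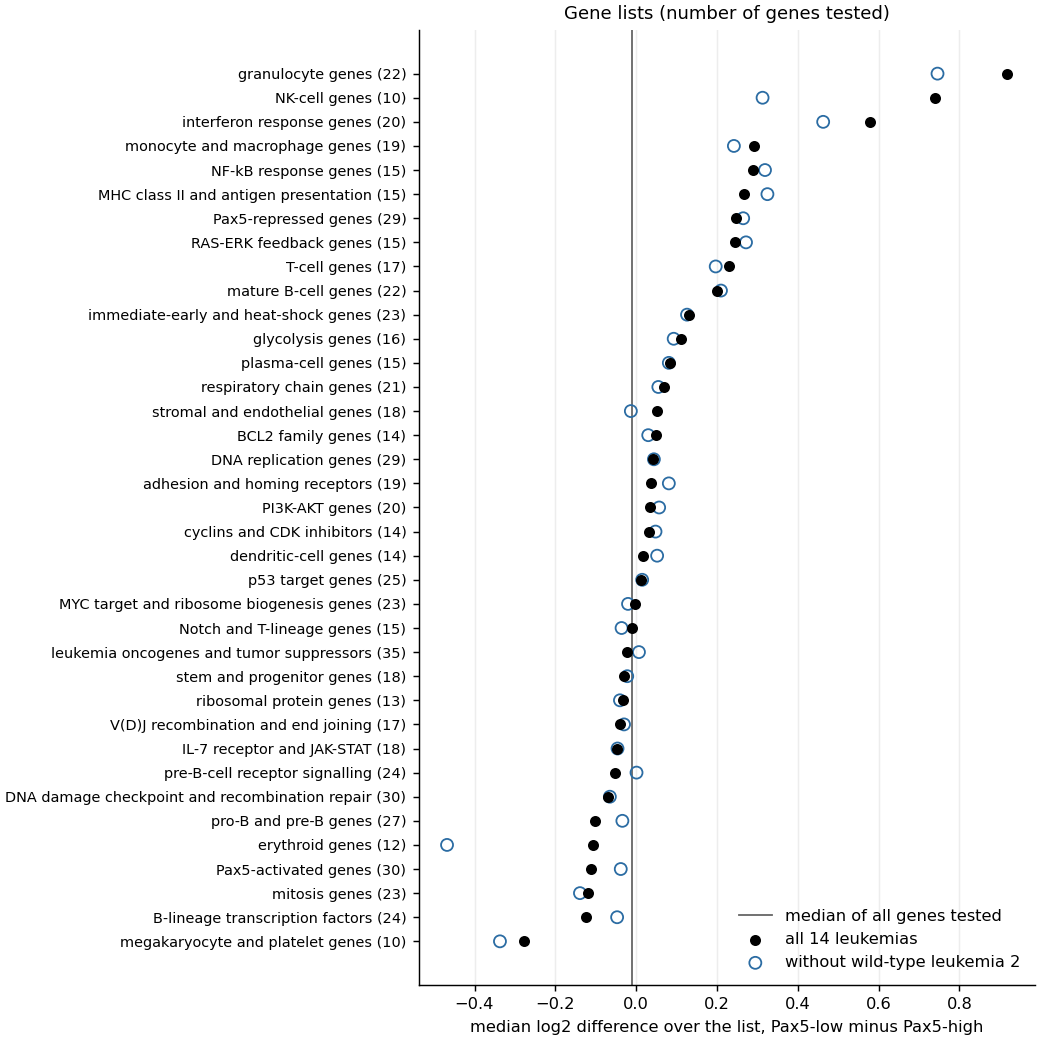
Median log2 difference, Pax5-low minus Pax5-high, of each of 37 gene lists, with the number of tested genes in brackets; filled points use all 14 leukemias, open circles leave out wild-type leukemia 2, and the grey line is the median of all genes tested (-0.01). Granulocyte (0.92), NK-cell (0.74) and interferon genes (0.58) have the highest medians, and NK-cell genes move most among these 3 when that leukemia is left out, to 0.31.

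Marker lists of other blood cells differed in both directions, and the granulocyte list had the highest median of all lists. All 22 tested granulocyte genes were higher, against 45% of all genes, with a median of 0.92. Only 1 had an unadjusted p under 0.05 (1.58% of all genes). The list mean ran from 7.36 to 10.11 in Pax5-low and from 6.06 to 9.57 in Pax5-high leukemias, so the groups overlapped. Ngp, a granule protein of neutrophils, was 10.96 to 12.82 in Pax5-low and 7.25 to 12.51 in Pax5-high leukemias (1.64 ± 0.77). Within the 10 Pax5+/- leukemias the median difference was 1.66 and 10 of the 22 had an unadjusted p under 0.05, against 1.46% of all genes. On the gradient all 22 slopes were positive with a median of 0.26, and 0 of the 22 had an unadjusted p under 0.05 (2.81% of all genes). Without wild-type leukemia 2 and Pax5+/- leukemia 2, 11 of 22 slopes were positive and their median was 0.01. All 5 defining markers, S100a8, S100a9, Ngp, Elane and Mpo, were above the dim level on every leukemic array. The part of granulocytes in the other differences was not tested, beyond a fit with the granulocyte mean as a covariate, in which limma called 0 genes and 344 had an unadjusted p under 0.05.

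NK-cell genes were set apart by 1 leukemia. The list mean was 9.40 in wild-type leukemia 2 and 7.68 in Pax5+/- leukemia 1, and 6.07 to 6.80 in the other 12. Ncr1, the NK receptor NKp46, was 10.41 in wild-type leukemia 2 and 4.79 to 5.49 elsewhere, at or below the dim level on 4 Pax5-low and 5 Pax5-high arrays. Klrb1c, the NK1.1 antigen, was 8.75 in wild-type leukemia 2 and 9.11 in Pax5+/- leukemia 2, the ends of the gradient, and at most 6.09 elsewhere. Of 10 tested genes 9 were higher in Pax5-low leukemias, with a median of 0.74 that was 0.31 without wild-type leukemia 2. Nkg7, a granule protein of cytotoxic cells and a gene of the Pax5-repressed list, spread further than the other NK genes. It was 11.69, 10.82, 9.47, 8.24, 10.16, 8.87 and 9.19 in the Pax5-low group, against 8.89, 6.92, 9.84, 7.05, 7.86, 8.75 and 5.67 in the Pax5-high group. The difference was 1.92 ± 0.65 (unadjusted p = 0.0109) and the slope 0.85 ± 0.18, which was 0.57 without both ends.

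T-cell genes marked the 3 leukemias with the least Pax5. Cd3g, a chain of the T-cell receptor complex, was 10.42 in wild-type leukemia 2, 9.68 in Pax5+/- leukemia 1 and 9.28 in Pax5+/- leukemia 4. It was 5.44 to 6.23 in the other 4 Pax5-low and 5.35 to 6.28 in all 7 Pax5-high leukemias, with nothing in between. The difference was 1.90 ± 0.78 (unadjusted p = 0.0283), and 1.41 without wild-type leukemia 2. Cd3e, another chain of that complex, was 6.99, 8.35 and 7.82 in the same 3 leukemias and 6.36 to 6.73 in the other 11. Cd3d was 6.83, 5.94 and 5.32 in them, and the other 4 Pax5-low and all 7 Pax5-high arrays lay at or below the dim level. Cd8a and Cd8b1, the chains of the CD8 coreceptor, named after their values were seen, were 7.29 and 6.99 in Pax5+/- leukemia 4, and at most 6.12 and 5.82 elsewhere. Over the 17 tested T-cell genes 15 were higher in Pax5-low leukemias, with a median of 0.23.

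Monocyte genes were higher in 17 of 19 cases (median 0.29), with differences of -1.19 to 0.74. Their list mean was 6.96 to 9.08 in Pax5-low and 7.31 to 8.31 in Pax5-high leukemias. Of the defining monocyte markers, Csf1r was lower (-0.44 ± 0.64) and C1qa higher (0.59 ± 0.35) in Pax5-low leukemias. Of the platelet genes all 10 were lower in Pax5-low leukemias, with a median of -0.28 and no unadjusted p under 0.05. On the gradient 8 of 10 were lower with a median slope of -0.02, and with genotype in the fit 5 of 10 were. The chemokine Ppbp was 10.56 to 13.07 in Pax5-low and 11.46 to 13.17 in Pax5-high leukemias. Erythroid genes had list means of 9.22 in wild-type leukemia 2 and 9.43 in wild-type leukemia 1, one in each group, and 6.12 to 7.58 elsewhere. Of 12 tested, 2 were higher in Pax5-low leukemias with a median of -0.11, which was -0.47 without wild-type leukemia 2. On the gradient 6 of 12 slopes were positive, 12 with genotype in the fit and 0 without wild-type leukemia 2 and Pax5+/- leukemia 2. In that last fit 9 were lower at an unadjusted limma p under 0.05, as were 381 of all 15383 genes. Dendritic-cell and stromal lists had medians of 0.02 and 0.05. The part of these cells in the differences between the groups was not tested.

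**Figure D5:**
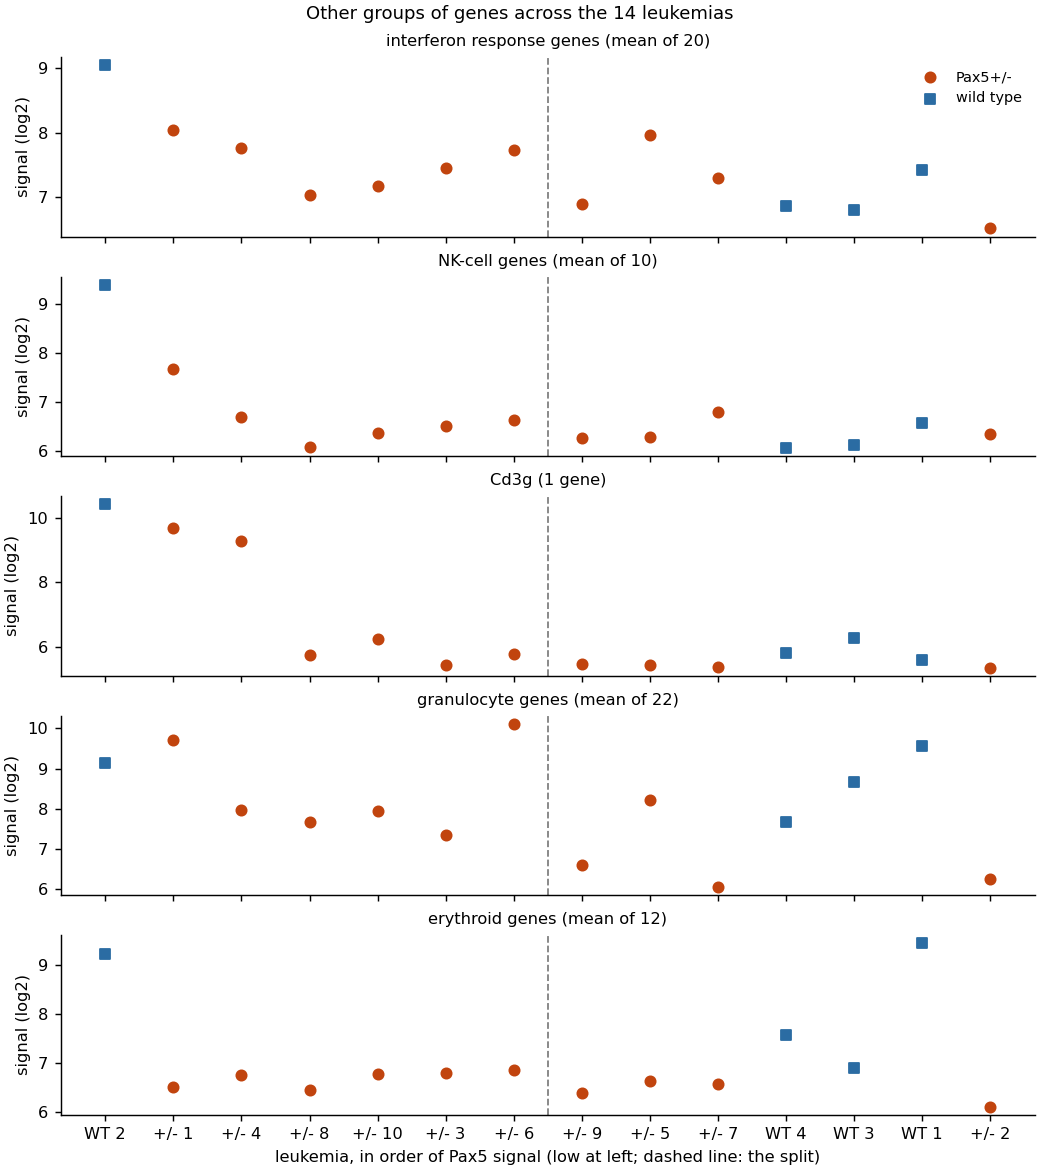
Mean log2 signal of the interferon, NK-cell, granulocyte and erythroid lists and the signal of Cd3g (vertical axes) in the 14 leukemias, ordered along the horizontal axis by rising Pax5 with the split as a dashed line; circles are Pax5+/- and squares wild-type mice. Cd3g is high in the 3 leukemias with the least Pax5 (9.28 to 10.42), NK-cell genes are high in wild-type leukemia 2 (9.40), and granulocyte genes are high on both sides of the split.

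Lists of signalling genes differed in direction. Genes of pre-B-cell receptor signalling were higher in Pax5-low leukemias in 10 of 24 cases (median -0.05), and those of the IL-7 receptor and JAK-STAT pathway in 8 of 18 (median -0.05). NF-kB response genes were higher in 14 of 15 cases (median 0.29), with 6 slopes at an unadjusted p under 0.05 (2.81% of all genes). That count was 6 without wild-type leukemia 2 (3.17% of all genes) and 2 without Pax5+/- leukemia 2 (1.83%). Bcl3, a nuclear cofactor of NF-kB, was 10.49 in Pax5+/- leukemia 1, 7.33 to 8.60 in the other Pax5-low and 7.22 to 8.45 in the Pax5-high leukemias. Genes of MHC class II and antigen presentation were higher in 14 of 15 cases (median 0.27). Their list mean reached 10.82 in Pax5+/- leukemia 1, against 8.55 to 9.52 in the other Pax5-low and 8.50 to 9.53 in the Pax5-high leukemias. All 15 RAS-ERK feedback genes were higher (median 0.25), yet 6 of 15 slopes were positive, and 12 of 15 without Pax5+/- leukemia 2. Dusp6, the phosphatase that limits ERK, was 8.46 to 10.98 in Pax5-low and 6.77 to 10.60 in Pax5-high leukemias (1.10 ± 0.65).

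Growth and repair genes differed by little. Of 23 mitosis genes 1 was higher in Pax5-low leukemias and the median was -0.12. DNA damage checkpoint and repair genes, of interest because the mice were irradiated, were higher in 5 of 30 cases (median -0.07). Rad50, a subunit of the complex that senses double-strand breaks, was 8.85 to 9.52 in Pax5-low and 9.32 to 9.52 in Pax5-high leukemias (-0.23 ± 0.08, unadjusted p = 0.0149). Medians were 0.01 over 25 p53 target genes, 0.04 over 29 replication genes and 0.11 over 16 glycolysis genes, of which 15 were higher. Myc, which drives growth and ribosome synthesis, was 9.09 in Pax5+/- leukemia 3 and 9.97 in wild-type leukemia 1, one in each group, and 11.18 to 11.93 in the other 12 leukemias. Notch1, a receptor that steers progenitors to the T lineage, was 9.41 to 11.58 in Pax5-low and 10.05 to 11.92 in Pax5-high leukemias (-0.12, 95% interval -0.83 to 0.59). Kit, the stem cell factor receptor, was 10.47, 9.87 and 11.62 in wild-type leukemia 2 and Pax5+/- leukemias 1 and 10 of the Pax5-low group, and 10.23 in Pax5+/- leukemia 9 of the Pax5-high group. It was 7.26 to 8.48 in the other 10 leukemias, and its difference was 0.99 ± 0.69.

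The preleukemic samples, which the split did not use, compare 7 Pax5+/- with 3 wild-type mice before leukemia. Their mean Pax5 signals differed by -0.45, and 257 of 15058 genes were called with limma (1.71%), 81 higher and 176 lower in Pax5+/-. All 3 wild-type arrays were high in Y-linked genes, whereas Pax5+/- arrays 4, 5 and 7 were low. The Y-linked class was not fitted in this comparison, so its part in the called genes was not tested. Of the 24 genes with the smallest p between Pax5-low and Pax5-high leukemias, 1 was called there. Tor3a was higher by 0.52 in Pax5-low leukemias and lower in preleukemic Pax5+/- samples (-0.92, adjusted p = 0.000623). St3gal5 differed by -0.04 (adjusted p = 0.987). The interferon list, positive in the leukemias, had 0 of 19 positive differences in the preleukemic comparison, with a median of -0.27 and 0 called by limma. The Pax5-repressed list, also mostly higher in Pax5-low leukemias, had 4 of 29 positive differences here, with a median of -0.54 and 0 called by limma. Its mean was 7.21, 7.45 and 8.66 in the 3 preleukemic wild-type arrays and 6.97 to 7.38 in Pax5+/- arrays, so 1 wild-type array stood well above the rest. The granulocyte list had 0 of 19 positive and a median of -1.35. Preleukemic wild-type array 1 had a granulocyte mean of 10.09, against 6.42 and 6.45 in the other wild-type arrays and 6.08 to 6.62 in Pax5+/- arrays. The count of called genes ran from 105 without preleukemic wild-type array 3 to 359 without preleukemic wild-type array 1.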

How the data were processed

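Messenger RNA was measured on 24 Affymetrix arrays, 1 per mouse, in leukemic Pax5+/- (n = 10), leukemic wild-type (n = 4), preleukemic Pax5+/- (n = 7) and preleukemic wild-type samples (n = 3). The authors deposited a log2 signal for each of 35556 probe sets. The tools were RMA and oligo, per the submitters' processing notes; RMA corrects background, normalizes quantiles and compresses differences near background. The sources used here give no versions, filters or batches, and the number of arrays limits the precision.

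Probe sets with 1 symbol in the platform table named 19938 genes, each through its probe set of highest mean. A gene was tested where it exceeded the 30th percentile of the array on at least 3 leukemic arrays (15383 genes besides Pax5). The groups of 7 were compared with limma 3.58.1 under R 4.3.3 with lmFit and eBayes (residual degrees of freedom 12, prior 1.85), two-sided, with Benjamini-Hochberg adjustment over all genes tested, after a check on simulated data. The preleukemic genotypes were compared the same way. Gene lists numbered 37, with 715 genes, 640 of them tested, and are described by counts and medians. The groups, the lists and the rule for named genes were chosen with earlier results of these data known. The rule took the 12 genes of smallest p in each direction, the 2 of smallest p in each list, a panel of 36 genes of B-cell leukemia (34 tested) and the 5 tested genes on each side of Pax5; small RNAs, predicted genes and segments of antigen receptors were left out of the 12. Alternatives were genotype, a Y-linked class or the granulocyte mean as covariates, Pax5+/- leukemias alone, Pax5 as a continuous predictor, other filters, variance models and scalings, and each array left out in turn.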

Additional observations from a re-analysis of the deposited data

Results flagged for a closer look

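In 31 of 264 groups of 7 leukemias (the Pax5-low and Pax5-high values of Pax5 and 131 named genes), 1 array lay far from the other 6, by the gap to its neighbour relative to the range of the group. By chance about 1 in 20 groups would show this where groups are independent and normally distributed, whereas these share 14 arrays.

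Wild-type leukemia 2 did so most often among the Pax5-low arrays. It was high in the erythroid genes Car2 (11.33, others 8.93 to 9.92) and Klf1 (6.69, others 5.20 to 5.58), in Rtp4 (10.41), in the survival gene Bcl2l1 (8.66, others 7.09 to 7.56) and in the neighbours of Pax5 Clta (8.93) and Grhpr (11.67, others 7.16 to 8.58), and low in Blnk (6.45, others 9.88 to 11.44). Pax5+/- leukemia 1 was high in Bcl3 (10.49) and Ier3 (6.87) and low in Notch1 (9.41, others 10.87 to 11.58). Pax5+/- leukemia 3 was low in Myc (9.09, others 11.18 to 11.59) and Cd22 (7.93), Pax5+/- leukemia 8 low in Ppbp (10.56), and Pax5+/- leukemia 4 high in Zpbp (5.72).

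Among the Pax5-high arrays Pax5+/- leukemia 2, with the most Pax5, was high in the transcription factors Ets1 (10.56, others 9.23 to 9.61) and Tcf3 (10.51, others 9.43 to 9.51), and in Bcar3 (6.21), Fbxl8 (8.05) and Gne (9.59, others 8.20 to 8.60), and low in Ppbp (11.46). Pax5+/- leukemia 7 was high in Gata2 (7.40) and low in Rfc3 (7.87) and Ezh2 (10.87). Pax5+/- leukemia 9 was high in Kit (10.23, others 7.26 to 8.17), and Pax5+/- leukemia 5 in Ankfy1 (8.90). Wild-type leukemia 1 was high in Klf1 (7.08) and Cd14 (5.99) and low in Myc (9.97, others 11.35 to 11.93), wild-type leukemia 4 low in Blnk (7.05, others 9.74 to 10.44) and Stat3 (9.18), and wild-type leukemia 3 high in Rrp12 (8.15).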

How the results depend on the processing

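The count of 0 called genes, higher and lower, held in all but 2 of 33 settings: 14 that left out 1 leukemia each and 19 others. Leaving out 1 leukemia gave 0 to 1 genes higher and 0 lower; the 1 gene was St3gal5, without wild-type leukemia 1. Pax5 as a continuous predictor without wild-type leukemia 2 and Pax5+/- leukemia 2, a setting chosen after seeing the data, gave 1 gene higher with less Pax5, Gnb4 (smallest adjusted p 0.00168), and 0 lower. Genes at an unadjusted p under 0.05 ran from 344 with the granulocyte mean as a covariate to 1388 with the continuous predictor and genotype. St3gal5 kept differences of 1.55 to 2.19 over the settings that compare groups. The 24 genes of smallest p kept their sign in all 792 values. Those genes were chosen by p on these same arrays, so the kept signs lend them no support. The 131 named genes changed sign in 132 of 4323 values, none of them called. In the preleukemic comparison 257 genes were called; leaving out 1 array gave 105 to 359, with 156 without Pax5+/- array 7. Replicate numbers only name mice: with a replicate block 0 genes were called higher and 0 lower in the leukemias, and 1 in the preleukemic comparison. With 7 arrays a group, the median 95% interval reached 0.191 on either side of a difference, and values near the dim level carry little signal over background.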
